A study of Mus musculus with 12 samples.

Results

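The 9 genes described here, Isx, Scarb1, Bco1, Rbp2, Lrat, Aldh1a1, Rdh7, Dhrs1 and Hsd17b6, cover the uptake of vitamin A and its precursors in the small intestine and the enzymes that interconvert retinoids. They were chosen by symbol with earlier results of these data known, and all 9 were found among the 17175 genes measured. The libraries are bulk RNA-seq of distal and proximal small intestine of mice labelled Bmpr1a cKO, in which a gene for a receptor of bone morphogenetic proteins (BMPs) is conditionally deleted, and of wild-type (WT) mice. The 4 groups (cKO distal, WT distal, cKO proximal, WT proximal) held 3 libraries each, and the series description gives the purpose as relating epithelial BMP signals to villus length along the intestine. The sources used here give neither strain nor age nor the driver of the deletion. Nor do they state that each library is a different mouse, so a p-value here reflects spread among these libraries. That spread may be technical, though Y-linked reads, given below, set cKO number 1 apart from cKO numbers 2 and 3. Values are scaled reads, that is reads plus 1, divided by a size factor of each library, and a gene was called where its Benjamini-Hochberg adjusted p in a limma fit over all genes was under 0.05.

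Vitamin A reaches the enterocyte as retinol from retinyl esters or as provitamin A carotenoids such as beta-carotene. The scavenger receptor SR-BI, the product of Scarb1, takes up carotenoids, BCO1 cleaves beta-carotene to retinal, RBP2 binds retinol and retinal inside the cell, and LRAT esterifies retinol for export in chylomicrons. Dehydrogenases oxidise retinol to retinal and retinal to retinoic acid, and in mice retinoic acid induces the homeobox factor ISX, which represses Bco1 and Scarb1.

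Upstream sequences of Isx, Bco1 and Rbp2 are shown because retinoic acid acts through nuclear receptors that bind the hexamer AGGTCA, alone or as a direct repeat, and these 3 genes stand for the regulator, its target and the retinol carrier. Windows from RefSeq (GRCm38.p6), 250 bases before to 50 after a gene's start, were found for 8 of the 9 genes, in 11 windows; Scarb1 had no entry in that table. The 250 bases before the start are printed 5′ to 3′, with AGGTCA or its reverse complement TGACCT in capitals, for Isx (chr8:74872924-74873173, plus strand), Bco1 (chr8:117095615-117095864, plus strand) and Rbp2 (chr9:98490287-98490536, plus strand, which GENCODE M21 places in an intron of longer Rbp2 transcripts).
Isx: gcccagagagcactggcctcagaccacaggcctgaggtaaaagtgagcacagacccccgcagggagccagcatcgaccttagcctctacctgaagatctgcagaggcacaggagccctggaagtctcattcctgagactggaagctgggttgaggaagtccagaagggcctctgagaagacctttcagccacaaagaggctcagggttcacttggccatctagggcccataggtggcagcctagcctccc
Bco1: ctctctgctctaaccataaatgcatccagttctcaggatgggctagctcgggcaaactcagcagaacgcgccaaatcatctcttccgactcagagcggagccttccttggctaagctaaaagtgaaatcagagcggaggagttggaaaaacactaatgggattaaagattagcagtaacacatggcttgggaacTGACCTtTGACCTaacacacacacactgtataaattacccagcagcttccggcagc
Rbp2: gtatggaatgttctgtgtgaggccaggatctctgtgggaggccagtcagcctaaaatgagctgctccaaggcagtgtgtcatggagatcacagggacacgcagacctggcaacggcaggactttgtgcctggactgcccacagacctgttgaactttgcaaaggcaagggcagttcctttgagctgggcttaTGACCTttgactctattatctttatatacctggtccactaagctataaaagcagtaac

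Bco1 carried 2 hexamers, at positions -56 and -49 from its start, and together they make a direct repeat of AGGTCA with 1 base between the copies. That repeat was present in 13 of 32851 RefSeq windows (0.0396%, both strands searched), and Bco1 was the 1 member with it. Rbp2 carried 1 hexamer at position -58 and Isx carried 0, and across the members' windows the hexamer was found for Bco1, Rbp2 and Rdh7, against 16.3% of all windows. The longer form AAAGGTCA, which contains the hexamer, was found for Bco1 and Rbp2 and in 1.51% of all windows. The homeodomain core TAATTA was found for Hsd17b6 alone (5.29% of all windows), and the direct repeat with 5 bases between the copies (0.00913%) and the SMAD site GGCGCC (11.9%) for no member. These matches describe letters in the windows only.

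The 12 libraries held 11242024 to 17722756 reads. Mitochondrially encoded genes took 16.4 ± 9.82% of reads in cKO distal libraries (27.7% in library 3), 29.8 ± 7.69% in WT distal, 11.96 ± 2.60% in cKO proximal and 22.8 ± 4.71% in WT proximal libraries (SD, n = 3 each). Both cKO libraries numbered 1 held 0 reads of 4 Y-linked genes, and each other library held 1251 to 2390, with reads of all 4. Read as sex, cKO number 1 is female and the others male, so sex differs within the cKO groups but not within WT. Fits without both cKO libraries numbered 1 leave out these libraries, and cannot tell sex from any other trait of them. Bmpr1a counted over the whole gene did not differ detectably between cKO and WT (log2 fold change 0.06 distal and 0.01 proximal, limma adjusted p = 0.852 and 0.983), which checks neither the deletion nor the labels, since exons outside a deleted part are counted. The BMP-induced genes Id1 and Smad6 fell in cKO libraries, with log2 fold changes of -2.65 and -3.95 in the distal and -3.59 and -5.62 in the proximal segment. All 8 epithelial and all 7 enterocyte markers were present in every group.

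**Figure D1:**
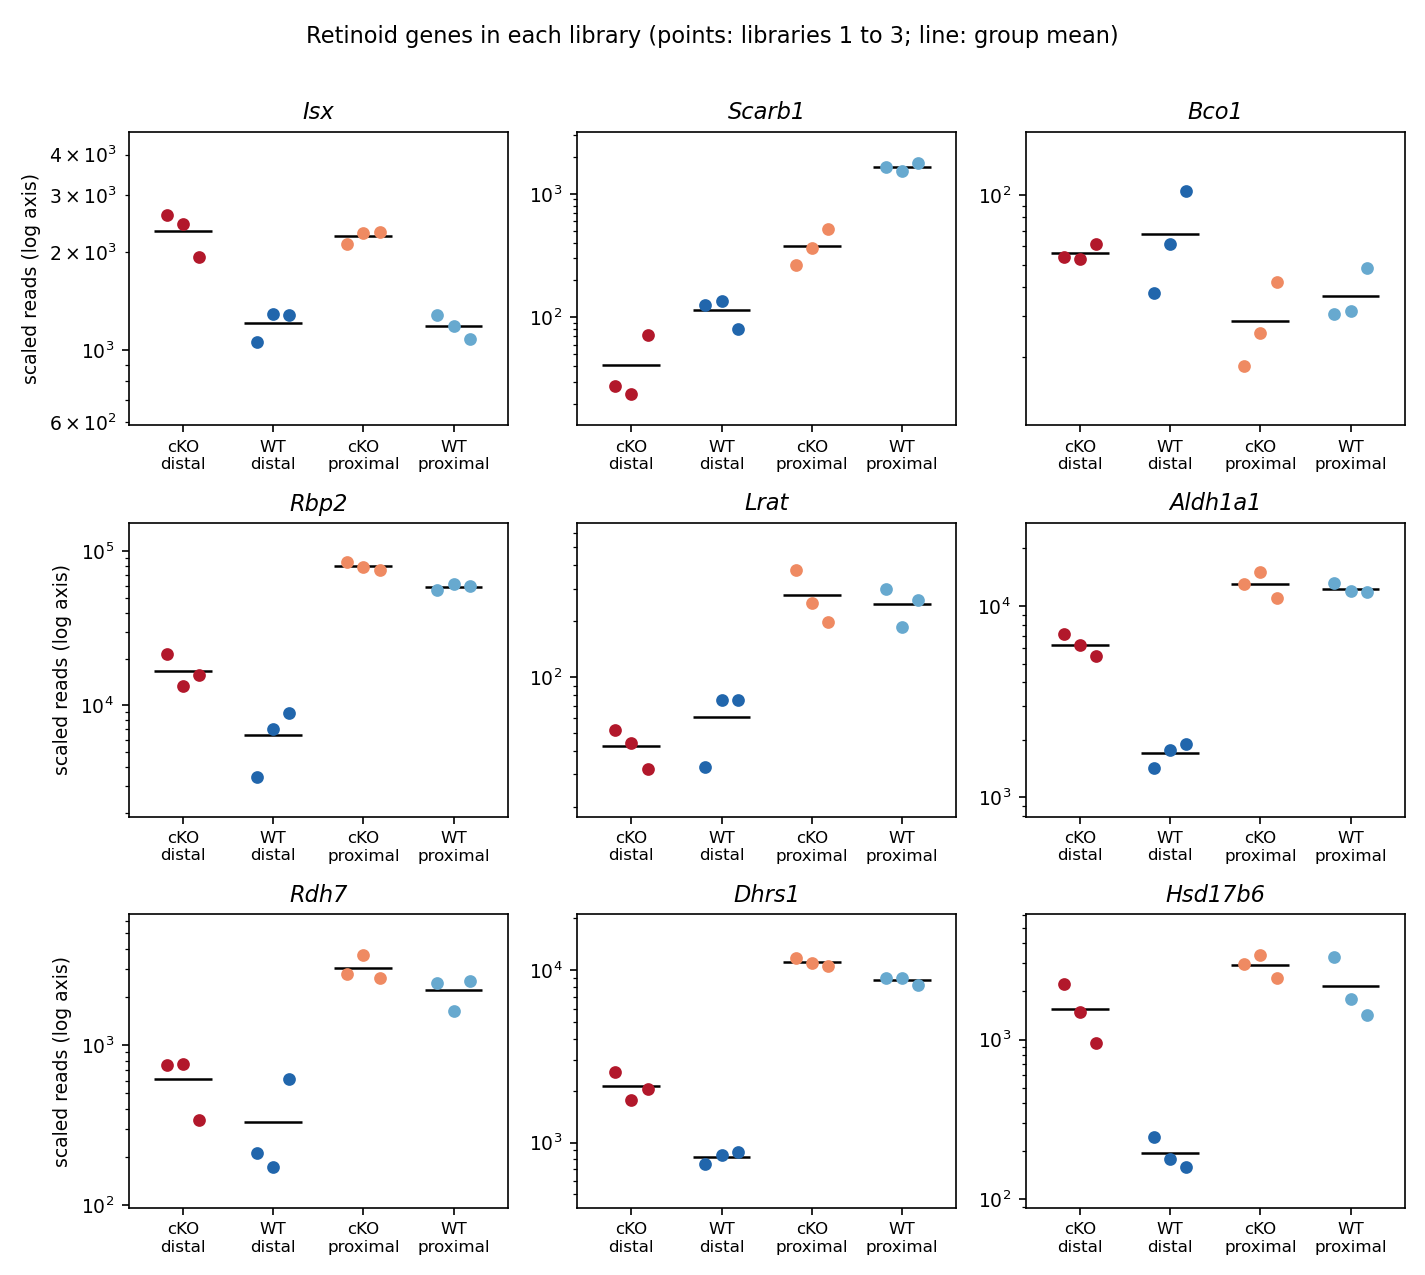
Scaled reads of the 9 genes on a log axis, 1 panel per gene. Points are libraries 1 to 3 of each group and lines are group means; Isx is high in both cKO groups (means 2330 and 2241) against both WT groups (1211 and 1182), while most other genes are low in distal libraries.

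Per kilobase of exon, which allows levels to be compared between genes, Rbp2 was far above the others, at 17508 ± 4344 scaled reads per kb in cKO distal, 6724 ± 2932 in WT distal, 82991 ± 4676 in cKO proximal and 61334 ± 2463 in WT proximal libraries (SD, n = 3 each). In cKO proximal libraries Dhrs1 (4039 ± 203 per kb) and Aldh1a1 (2646 ± 407) followed. Hsd17b6 (1862 ± 308) and Rdh7 (1804 ± 330) did not differ beyond their spread, and Isx (1250 ± 59.5) came next. The lowest 3 were Lrat (51.5 ± 16.98), Scarb1 (44.8 ± 14.9), which did not differ beyond their spread, and Bco1 (11.2 ± 4.79). The order differed in WT proximal libraries, where Scarb1 stood at 193 ± 14.3 per kb and Lrat at 46.4 ± 10.8, with no overlap.

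**Figure D2:**
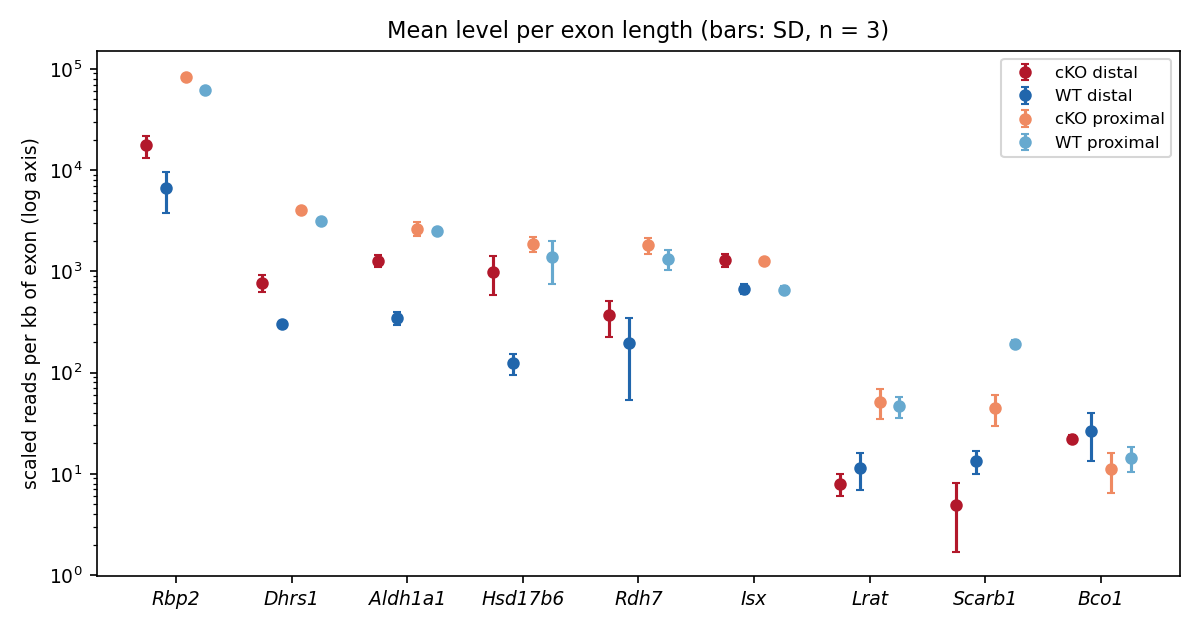
Mean scaled reads per kb of exon on a log axis for the 9 genes, with SD over 3 libraries, in the order of their cKO proximal level. Rbp2 tops every group, from 6724 per kb in WT distal to 82991 in cKO proximal libraries, and Bco1, Scarb1 and Lrat lie lowest.

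The first comparison set cKO against WT in the distal segment. There 5 of the 9 genes rose in cKO libraries (Isx, Rbp2, Aldh1a1, Dhrs1 and Hsd17b6), 1 fell (Scarb1), and Bco1, Lrat and Rdh7 did not pass. This is 6 of 9 beside 25.0% of all genes called in this comparison (13.3% higher and 11.7% lower). The genes and lists were chosen with earlier results of these data known. Counts set beside shares of all genes, here and below, are therefore description and not a test. The median log2 fold change over the 9 genes was 1.04, beside 0.06 over all genes. Without both cKO libraries numbered 1, 4 members rose and 1 fell, beside 844 higher and 1316 lower of all 17175 genes. With the mitochondrial share of each library as a covariate 4 members rose and 0 fell, beside 424 higher and 932 lower of all genes. Rbp2 had 1.19 in that fit (limma adjusted p = 0.113). Enterocyte markers had a median log2 fold change of 1.32 in the same comparison. The scaling to them subtracts the mean log2 level of the list, which was 14.86 in cKO distal and 13.81 in WT distal libraries. Relative to them 2 members were higher (Aldh1a1 and Hsd17b6) and 2 lower (Scarb1 and Lrat) in cKO. Under that scaling 183 of all 17175 genes were higher and 7822 lower. In bulk tissue, fewer cells of a type and less RNA per cell cannot be told apart.

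In the proximal segment cKO and WT differed for 2 of the 9 genes: Isx rose and Scarb1 fell, as in the distal segment. The background here was 8.26% of all genes called (4.21% higher and 4.05% lower), and the median over the 9 genes was 0.35, beside 0.08 over all genes. Both calls held without both cKO libraries numbered 1. In this segment limma called 0 of the 9 once the mitochondrial share was a covariate, with log2 fold changes of 0.70 for Isx (adjusted p = 0.0620) and -1.35 for Scarb1 (adjusted p = 0.0590). Calls over all genes fell too, from 1418 to 292 (151 higher and 141 lower). The share was at most 14.8% in cKO proximal and at least 17.4% in WT proximal libraries. With no overlap between genotypes, that fit separates genotype from this share poorly.

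**Figure D3:**
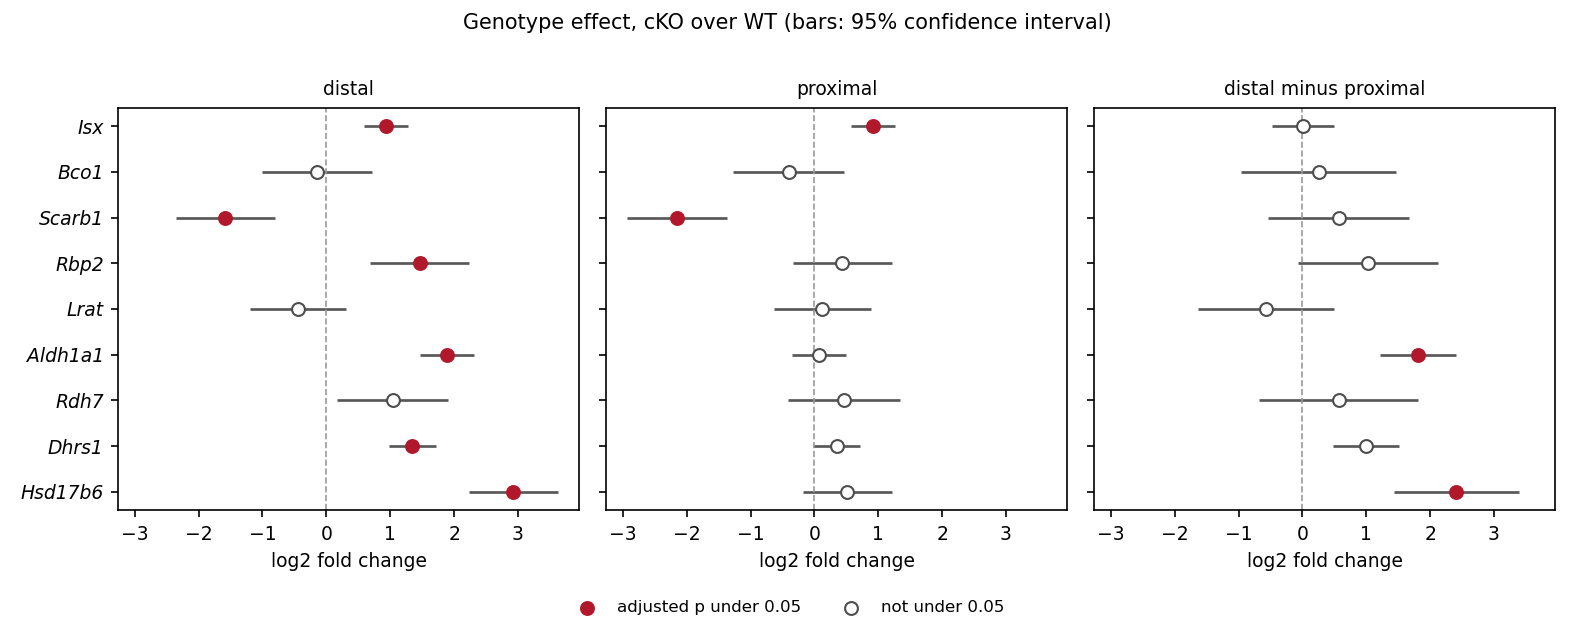
Log2 fold change of cKO over WT for the 9 genes in the distal segment, in the proximal segment, and the difference of these effects (distal minus proximal). Points are limma estimates with 95% confidence intervals, filled where the adjusted p is under 0.05; Isx and Scarb1 are filled in both segments, and Aldh1a1 (1.81) and Hsd17b6 (2.41) in the difference.

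Isx lies at chr8:74873173-74893506 on the plus strand (mm10, GENCODE M21). It stood at 2615, 2445 and 1930 scaled reads in cKO distal libraries, against 1055, 1293 and 1286 in WT distal libraries. Proximal libraries had 2119, 2292 and 2313 in cKO, against 1281, 1182 and 1082 in WT. Every cKO library was above every WT library of either segment. The rise was 1.92-fold in the distal segment (log2 fold change 0.94, SE 0.16, limma adjusted p = 0.000925) and 1.90-fold in the proximal (log2 fold change 0.93, SE 0.16, adjusted p = 0.00416). The difference of the effects was 0.01 on the log2 scale, with a 95% confidence interval from -0.47 to 0.50. Segment made no detectable difference to Isx, with distal over proximal at 0.05 (interval -0.30 to 0.39) in cKO and 0.03 (interval -0.31 to 0.38) in WT. Set relative to the mean of 8 epithelial markers, the distal genotype effect was 0.47 and was not called (limma adjusted p = 0.0987). Relative to 7 enterocyte markers it was -0.11 in the distal (adjusted p = 0.766) and 0.60 in the proximal segment (adjusted p = 0.341).

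Scarb1 (chr5:125277087-125341094, minus strand) moved the opposite way. The cKO distal libraries had 27.5, 24.1 and 72.3 scaled reads and the WT distal libraries 127, 136 and 80.1. In the proximal segment cKO libraries had 266, 361 and 516, against 1633, 1522 and 1765 in WT. The groups did not overlap in either segment, though cKO distal library 3 came close to WT distal library 3, and the distal values rest on 25 to 131 reads per library. The level fell by 1.58 on the log2 scale in the distal segment (SE 0.36, limma adjusted p = 0.00617) and by 2.15 in the proximal (4.45-fold, SE 0.36, adjusted p = 0.00347). With the mitochondrial share as a covariate the distal value was -0.73 and was not called (adjusted p = 0.219). Along the intestine Scarb1 had the largest estimated decline of the 9 genes in WT and in cKO: distal over proximal was -3.30 in cKO (9.84-fold, adjusted p = 3.96e-05) and -3.87 in WT (14.6-fold, adjusted p = 5.93e-06).

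Bco1 (chr8:117095854-117133720, plus strand), the other gene that ISX represses in mice, was scarce. It had 54.0, 53.1 and 61.7 scaled reads in cKO distal libraries, against 37.7, 61.7 and 104 in WT distal libraries, and 18.2, 25.4 and 41.9 in cKO proximal libraries, against 30.5, 31.4 and 48.4 in WT proximal libraries. Genotypes overlapped in both segments. The genotype effect was -0.15 in the distal segment (95% interval -1.01 to 0.71, limma adjusted p = 0.822) and -0.40 in the proximal (interval -1.27 to 0.46, adjusted p = 0.569), on 17 to 98 reads per library. Distal over proximal was 1.03 in cKO (SE 0.40, adjusted p = 0.126) and 0.78 in WT (SE 0.40, adjusted p = 0.185). With libraries of the same number paired across segments, the cKO value passed (adjusted p = 0.0466), which made Bco1 the 1 member higher in distal than in proximal libraries.

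Rbp2 (chr9:98486115-98509781, plus strand) is among the most abundant transcripts of the enterocyte. It had 21453, 13305 and 15770 scaled reads in cKO distal libraries, against 3424, 6990 and 8992 in WT distal libraries, with no overlap. Proximal libraries had 84811, 78649 and 76052 in cKO, against 56415, 61066 and 59527 in WT, again with every cKO library higher. The distal rise was 2.75-fold (log2 fold change 1.46, SE 0.36, limma adjusted p = 0.00972). The proximal value was 0.44 (SE 0.36, adjusted p = 0.490). The distal call was lost without WT distal library 1 and without both cKO libraries numbered 1: without WT distal library 1 the value was 1.06 (adjusted p = 0.0549), and without the cKO pair it was 1.27 (adjusted p = 0.0648). It was 0.41 relative to the enterocyte markers (adjusted p = 0.264).

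Lrat (chr3:82892579-82903973, minus strand), the enzyme acting after RBP2, did not follow it. The cKO distal libraries had 51.9, 44.0 and 31.9 scaled reads and the WT distal libraries 32.9, 75.0 and 74.8. Proximal libraries had 376, 252 and 199 in cKO, against 299, 185 and 261 in WT. Genotypes overlapped in both segments, with log2 fold changes of -0.44 (95% interval -1.19 to 0.32, limma adjusted p = 0.394) in the distal and 0.13 (interval -0.63 to 0.88, adjusted p = 0.858) in the proximal segment. Relative to the enterocyte markers the distal value was -1.49 and passed (adjusted p = 0.00945). Segments did not overlap in either genotype.

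Among the oxidising enzymes, Aldh1a1 (chr19:20492715-20643465, plus strand) makes retinoic acid from retinal. It had 7151, 6233 and 5477 scaled reads in cKO distal libraries, against 1432, 1772 and 1898 in WT distal libraries. In proximal libraries the values were 13081, 15068 and 11044 in cKO and 13189, 11931 and 11782 in WT. Every cKO distal library stood above every WT distal library, while the proximal libraries of both genotypes overlapped. The distal rise was 3.70-fold (log2 fold change 1.89, SE 0.20, limma adjusted p = 3.40e-05; relative to the enterocyte markers 0.84, adjusted p = 0.0273), and the proximal value was 0.08 (95% interval -0.35 to 0.50, adjusted p = 0.844). Its transcript is 88.8% identical to that of Aldh1a7 over 2036 bases, so how reads were divided between these 2 genes is uncertain. Aldh1a7 rose in cKO distal libraries too (log2 fold change 0.95, limma adjusted p = 0.00639). It was not called in the proximal segment, where its means were 1013 scaled reads in cKO and 1385 in WT.

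Hsd17b6 (chr10:127990936-128007611, minus strand), a short-chain dehydrogenase known to oxidise steroids and retinol, had the widest distal difference of the 9 genes. Its cKO distal libraries had 2239, 1486 and 947 scaled reads and its WT distal libraries 246, 180 and 159. Proximal libraries had 2991, 3385 and 2420 in cKO, against 3269, 1800 and 1418 in WT. The distal groups lay far apart, and the lowest cKO distal library, number 3, was still above the highest WT distal library. The rise was 7.61-fold (log2 fold change 2.93, SE 0.32, limma adjusted p = 4.76e-05), against a proximal value of 0.52 (SE 0.32, adjusted p = 0.344). The distal value was 1.88 relative to the enterocyte markers (adjusted p = 0.000461).

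Dhrs1 (chr14:55739020-55745690, minus strand) belongs to the same dehydrogenase superfamily. It had 2555, 1776 and 2054 scaled reads in cKO distal libraries, against 753, 846 and 885 in WT distal libraries, and 11759, 11018 and 10663 in cKO proximal libraries, against 8977, 9003 and 8251 in WT proximal libraries. The cKO libraries were higher in both segments without overlap. Only the distal difference passed, at 2.55-fold (log2 fold change 1.35, SE 0.17, limma adjusted p = 9.71e-05), with 0.35 in the proximal segment (SE 0.17, adjusted p = 0.216). Set against the enterocyte markers, the distal value was 0.30 and did not pass (adjusted p = 0.389).

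Rdh7 (chr10:127884028-127888817, minus strand), a mouse dehydrogenase that oxidises retinol, varied widely between libraries of a group. It had 746, 763 and 341 scaled reads in cKO distal libraries, against 212, 173 and 611 in WT distal libraries, where library 3 was the high one. Proximal libraries had 2786, 3660 and 2634 in cKO, against 2446, 1635 and 2529 in WT. The distal value of 1.04 (SE 0.41, limma adjusted p = 0.0794) did not pass with all libraries. It passed without WT distal library 3 (log2 fold change 1.59, adjusted p = 0.00214) or without cKO distal library 3 (1.42, adjusted p = 0.0215). The proximal value was 0.47 (adjusted p = 0.510). Rdh7 is 86.3% identical to Rdh16 over 1031 bases, 86.9% to Rdh1 over 988 and 85.4% to Rdh9 over 1065, and Hsd17b6 is 79.9% identical to Rdh9 over 567, so reads of these genes could be shared.

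Whether the genotype effect differed between segments was tested as the distal minus the proximal effect. It passed for 2 of the 9 genes, Aldh1a1 and Hsd17b6, both higher, beside 0.576% of all genes called (0.175% higher and 0.402% lower). For Aldh1a1 the difference was 1.81 on the log2 scale (SE 0.28, limma adjusted p = 0.0179) and for Hsd17b6 2.41 (SE 0.46, adjusted p = 0.0340). Dhrs1 did not pass, with 0.998 (SE 0.24, adjusted p = 0.0769), but passed with TMM factors (1.03, adjusted p = 0.0435) and in DESeq2 (1.03, adjusted p = 0.000162); its adjusted p over all alternatives ranged up to 0.693. Rbp2 stood at 1.03 (SE 0.51, adjusted p = 0.412), Rdh7 and Scarb1 at 0.57 each, Bco1 at 0.25, Isx at 0.01 and Lrat at -0.57, and none of these passed. Without both cKO libraries numbered 1, neither Aldh1a1 (1.72, adjusted p = 0.121) nor Hsd17b6 (2.13, adjusted p = 0.193) passed, and relative to the enterocyte markers neither did (1.09, adjusted p = 0.192, and 1.69, adjusted p = 0.107, in that order). Hsd17b6 also failed in 8 of 12 fits that left out a single library, with adjusted p up to 0.106, and Aldh1a1 in 2 of 12, without WT distal library 2 and without cKO distal library 1, with adjusted p up to 0.0539. With libraries of the same number paired across segments, Aldh1a1 and Hsd17b6 both passed.

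Distal was then set against proximal within each genotype. Scarb1, Rbp2, Lrat, Aldh1a1, Rdh7 and Dhrs1 fell in distal libraries of both genotypes, and Hsd17b6 fell in WT. That is 6 of 9 genes lower in cKO, beside 10.5% of all genes called (4.16% higher and 6.36% lower), and 7 of 9 lower in WT, beside 24.1% called (11.9% higher and 12.2% lower). The median over the 9 genes was -2.27 in cKO and -2.94 in WT, beside -0.02 in cKO and 0.04 in WT over all genes. Without both cKO libraries numbered 1 these counts were again 6 and 7, beside 862 genes called in cKO and 3677 in WT.

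Dhrs1 fell by 2.40 on the log2 scale in cKO (5.29-fold, limma adjusted p = 9.65e-07) and by 3.40 in WT (10.6-fold, adjusted p = 4.01e-08). For Aldh1a1 the log2 fold change was -1.05 in cKO (adjusted p = 0.00330) and -2.86 in WT (adjusted p = 4.64e-07), and for Rbp2 it was -2.27 in cKO (adjusted p = 0.000933) and -3.30 in WT (adjusted p = 2.78e-05). Lrat had -2.64 in cKO (adjusted p = 0.000215) and -2.08 in WT (adjusted p = 0.000846), and Rdh7 had -2.37 in cKO (adjusted p = 0.00166) and -2.94 in WT (adjusted p = 0.000200). Hsd17b6 had -0.99 in cKO (SE 0.32, adjusted p = 0.0700) and -3.40 in WT (adjusted p = 7.01e-06). With libraries of the same number paired across segments the cKO value of Hsd17b6 passed too (adjusted p = 0.00602). With Bco1 this made 7 members lower and 1 higher in cKO, beside 1527 lower and 1074 higher of all genes. Relative to the enterocyte markers, Aldh1a1 in cKO (-0.53, adjusted p = 0.265) and Lrat in WT (-0.83, adjusted p = 0.0886) did not pass. Under the same scaling, Isx (1.281, adjusted p = 0.00137) and Bco1 (2.03, adjusted p = 0.00194) were higher in distal libraries of WT. That list itself varied by segment: limma called 2 of its 7 genes lower and 0 higher in distal libraries of each genotype. Its median for distal over proximal, on the log2 scale, was 0.37 (cKO) and -0.59 (WT), with minima of -3.79 and -4.00. The scaling subtracts the mean log2 level of the list, not its median. That mean was 14.86 in cKO distal and 15.38 in cKO proximal libraries, and 13.81 in WT distal and 15.06 in WT proximal libraries. The scaling therefore raised every distal over proximal value in both genotypes, also in cKO, where the median of the list was positive. How far single markers shaped this was not tested.

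**Figure D4:**
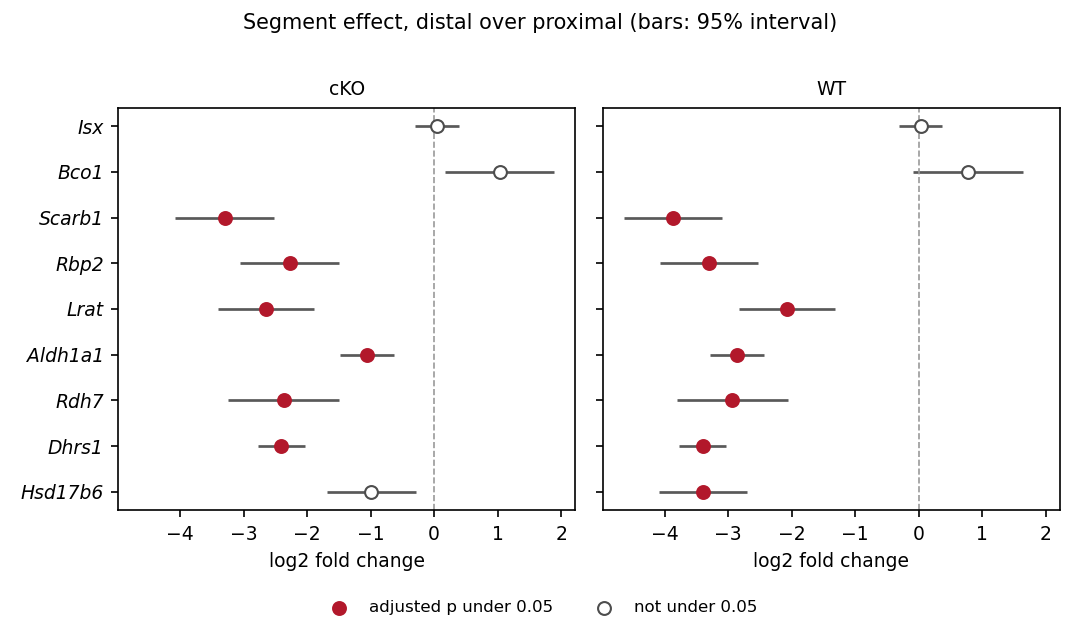
Log2 fold change of distal over proximal for the 9 genes in cKO and in WT libraries. Points are limma estimates with 95% confidence intervals, filled where the adjusted p is under 0.05; Isx sits at 0 in both genotypes (0.05 and 0.03), and Aldh1a1 and Hsd17b6 lie nearer 0 in cKO (-1.05 and -0.99) than in WT (-2.86 and -3.40).

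Marker levels of other cell types moved with genotype. In the distal segment 2 of 8 epithelial markers (Epcam and Cdh1) and 2 of 7 enterocyte markers were higher in cKO, with median log2 fold changes of 0.28 and 1.32 over these lists, beside 1.04 over the 9 genes and 0.06 over all genes. The summed level of the epithelial list was 153537 to 250131 scaled reads in cKO distal and 115743 to 186378 in WT distal libraries, and that of the enterocyte list 318857 to 497599 in cKO distal and 116915 to 288587 in WT distal libraries. B cell markers were lower for 4 of 4 genes, with sums of 85.5 to 293 in cKO distal and 4398 to 12440 in WT distal libraries, and myeloid markers for 2 of 5, with sums of 3359 to 4979 in cKO distal and 4727 to 21335 in WT distal libraries. In the proximal segment 0 of 8 epithelial and 0 of 7 enterocyte markers passed in limma or edgeR, with 1 lower and 1 higher in that order at an unadjusted p under 0.05, and 0 and 1 in DESeq2. There 2 of 4 B cell and 3 of 5 myeloid markers were lower in cKO, with B cell sums of 110 to 224 in cKO proximal and 290 to 1967 in WT proximal libraries. Of 3 plasma cell markers, 2 were lower in cKO in each segment, and 1 was higher in the distal. Of 3 endothelial markers, 1 was lower in each segment. Fibroblast and smooth muscle markers gave 0 calls, with medians of -1.02 and -1.05 in the distal and -1.47 and -1.40 in the proximal segment. T cell and dendritic cell markers were lower for 1 of 4 each in the distal and 0 in the proximal segment. Between segments, 0 of 8 epithelial markers passed in limma in either genotype, with 2 in cKO and 3 in WT at an unadjusted p under 0.05, 1 and 2 in edgeR, and 3 and 3 in DESeq2. In WT 4 of 4 B cell markers were higher in distal libraries. None of these markers was at 0 reads throughout a group. The mean log2 level of the epithelial markers was 13.94 in cKO distal and 13.47 in WT distal libraries. Set relative to that mean, 4 members remained higher and 1 lower in cKO distal libraries, the exception being Isx. Under that scaling 730 of all genes were higher and 2822 lower. Relative to the 7 enterocyte markers, which put the median of all genes at -0.99, 2 members were higher and 2 lower. The part of the B cell, myeloid and other non-epithelial markers in the genotype results was not tested.

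Beyond the 9 genes, 56 other genes of the pathway were listed, of which 48 were measured. In the distal segment 14 of the 48 were higher and 4 lower in cKO, beside 13.3% and 11.7% of all genes, so that the lower calls were no more frequent than over all genes. Relative to the enterocyte markers 2 were higher and 15 lower, beside 183 higher and 7822 lower of all 17175 genes under that scaling. Without both cKO libraries numbered 1 the counts were 6 and 4, beside 844 and 1316 of all genes. In the proximal segment 6 were higher and 0 lower in limma (4.21% and 4.05% of all genes). At an unadjusted p under 0.05, 10 were higher and 7 lower, beside 4324 of all 17175 genes in either direction. In edgeR 4 were higher and 0 lower (513 and 777 of all genes), and in DESeq2 6 and 2 (937 and 1367 of all genes). The median log2 fold change over the 48 was 0.37 distal and 0.02 proximal, beside 0.06 and 0.08 over all genes. For the difference of the effects 0 of the 48 passed in limma, beside 99 of all genes. At an unadjusted p under 0.05, 8 were higher and 3 lower, beside 2265 of all genes in either direction. The count was 1 in edgeR, 4 in DESeq2 and 1 with libraries of the same number paired across segments. All genes gave 59, 594 and 460 in that order.

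Enzymes of retinol and retinal conversion made up most of these. Of 21 measured, 10 were higher and 2 lower in cKO distal libraries, and 6 were higher in cKO proximal libraries, beside 13.3% higher and 11.7% lower distal and 4.21% higher proximal over all genes. The lower share was thus near that of all genes. Without both cKO libraries numbered 1 the counts of higher and lower genes were 5 and 2 in the distal and 3 and 0 in the proximal segment. All 17175 genes gave 844 and 1316 distal and 332 and 434 proximal in that fit. With the mitochondrial share as a covariate the list gave 2 and 2 in the distal and 2 and 0 in the proximal segment. All genes gave 424 and 932 distal and 151 and 141 proximal there. Relative to the enterocyte markers the counts of the list were 1 and 4 in the distal and 2 and 0 in the proximal segment. Under that scaling all 17175 genes gave 183 higher and 7822 lower in the distal, and 144 and 596 in the proximal segment. Rdh10, the membrane-bound retinol dehydrogenase, had 424, 295 and 478 scaled reads in cKO distal libraries, against 180, 201 and 196 in WT distal libraries, and 1122, 1178 and 1386 in cKO proximal libraries, against 649, 512 and 655 in WT proximal libraries. It rose 2.03-fold in each segment (log2 fold change 1.02 in both, SE 0.19, limma adjusted p = 0.00176 distal and 0.00684 proximal), with no overlap in either.

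Rdh16, a microsomal retinol dehydrogenase close in sequence to Rdh7, had 283, 272 and 123.3 scaled reads in cKO distal libraries, against 68.2, 63.7 and 53.8 in WT distal libraries, and 345, 459 and 414 in cKO proximal libraries, against 102, 56.1 and 103 in WT proximal libraries. It rose by a log2 fold change of 1.77 in the distal (SE 0.32, limma adjusted p = 0.00149) and 2.25 in the proximal segment (SE 0.32, adjusted p = 0.00133). Adh1, a cytosolic alcohol dehydrogenase that oxidises retinol, had 6942, 3185 and 2589 in cKO distal libraries, against 916, 744 and 882 in WT distal libraries. Its rise was 4.56-fold there (log2 fold change 2.19, SE 0.30, adjusted p = 0.000179), and the proximal value of 0.85 did not pass (adjusted p = 0.0954). Dhrs9, a retinol dehydrogenase of low level, had 130, 82.6 and 171 in cKO proximal libraries, against 27.4, 20.2 and 12.9 in WT proximal libraries. It rose 6.10-fold (log2 fold change 2.61, SE 0.48, adjusted p = 0.00634). Dhrs7 and Rdh13, both short-chain dehydrogenases, rose in the proximal segment as well, by log2 fold changes of 1.04 and 0.68 (adjusted p = 0.0136 and 0.0391). Dhrs9, Dhrs7 and Rdh13 also rose in the distal segment, by 2.23, 0.85 and 0.58 (limma adjusted p = 0.00440, 0.0132 and 0.0337).

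**Figure D5:**
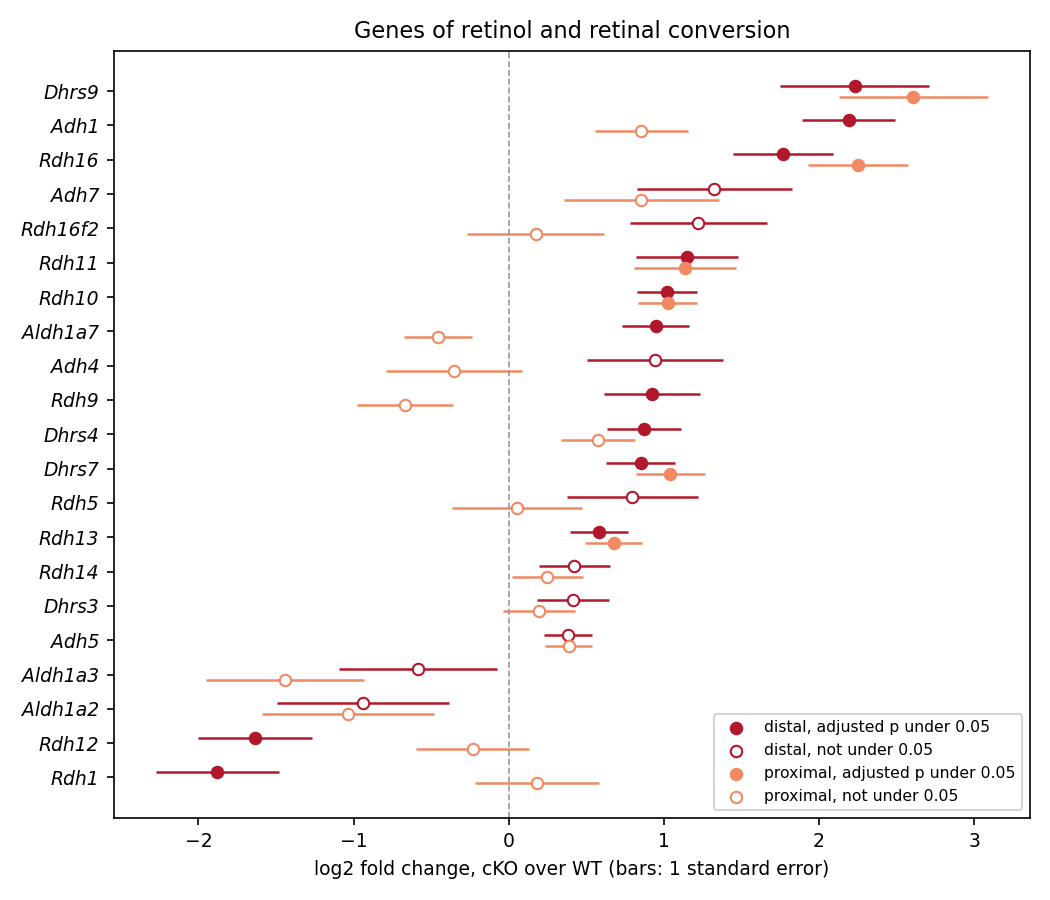
Log2 fold change of cKO over WT for the 21 measured genes of retinol and retinal conversion outside the 9, in the distal (dark) and proximal (light) segment. Bars are 1 standard error and filled points have a limma adjusted p under 0.05; 10 distal and 6 proximal points are filled above 0, and 2 distal points below it.

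Among 14 genes of uptake, storage and transport, 4 were higher and 1 lower in cKO distal libraries (13.3% and 11.7% of all genes). Without both cKO libraries numbered 1 these counts were 1 and 1, beside 844 and 1316 of all 17175 genes. Mttp, which loads lipid onto the lipoproteins that carry retinyl esters out of the enterocyte, had 71609, 27237 and 48809 scaled reads in cKO distal libraries, against 6457, 6599 and 15551 in WT distal libraries. It rose 5.24-fold (log2 fold change 2.39, SE 0.44, limma adjusted p = 0.00156). Stra6, a membrane receptor that takes retinol from its plasma carrier, was scarce and fell to 4.24, 9.13 and 6.38 in cKO distal libraries, against 32.9, 47.3 and 25.3 in WT distal libraries, on 3 to 45 reads per library. The log2 fold change was -2.26 (SE 0.44, limma adjusted p = 0.00219). Stra6 is also counted among 12 target genes of retinoic acid, of which 2 were lower and 0 higher in the distal segment in limma, edgeR, DESeq2 and at an unadjusted p under 0.05. The share lower is near the 11.7% of all genes.

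Retinoid receptors (5 measured) and genes that bind or break down retinoic acid (3 measured) gave 0 calls between genotypes in either segment with limma, edgeR or DESeq2. At an unadjusted p under 0.05 there was 1, the receptor gene Rarb in the proximal segment, named here after its values were seen. Rarb had 13.1, 13.8 and 9.32 scaled reads in cKO proximal libraries, against 5.26, 2.24 and 1.07 in WT proximal libraries, which is 9 to 12 against 0 to 4 reads, and its limma adjusted p was 0.0589.

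Along the intestine, 4 of the 48 wider genes were higher and 11 lower in distal than in proximal libraries of cKO, beside 4.16% and 6.36% of all genes, and 4 and 16 in WT, beside 11.9% and 12.2%. These counts were 6 and 6 in cKO and 20 and 7 in WT relative to the enterocyte markers. Under that scaling 1213 of all 17175 genes were higher and 309 lower in cKO, and 11232 were higher and 392 lower in WT. Plb1, a brush border phospholipase that also hydrolyses retinyl esters, had 21345, 11279 and 4392 scaled reads in cKO distal libraries, against 8.08, 1.06 and 4.66 in cKO proximal libraries. In WT it had 4140, 3774 and 15273 in distal, against 4.21, 10.1 and 39.8 in proximal libraries. Its log2 fold changes of 11.07 in cKO and 8.87 in WT (limma adjusted p = 9.08e-07 and 3.16e-06) depend on the pseudocount, since proximal libraries held 0 to 36 reads. The alcohol dehydrogenases went the other way: Adh1 had -2.49 in cKO and -3.82 in WT (adjusted p = 9.06e-05 and 1.15e-06), Adh4 -3.49 in cKO and -4.79 in WT (adjusted p = 0.000131 and 4.96e-06), and Adh7 -2.92 in cKO and -3.39 in WT (adjusted p = 0.00155 and 0.000311). Rdh10 fell by 1.64 on the log2 scale in both genotypes (adjusted p = 6.74e-05 in cKO and 4.45e-05 in WT), and Aldh1a7, the close copy of Aldh1a1, by 1.93 in WT (adjusted p = 3.35e-05).

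Genes whose levels ran most like each member over the 12 libraries were ranked by Pearson r of log2 values among 12117 candidates. The libraries share their group structure and sequencing, so these r values describe the pattern only. For Isx they were Ndrg1 (r = 0.984, rho = 0.874), Slc30a4 (r = 0.982, rho = 0.972) and Nrn1 (r = 0.977, rho = 0.937). Those nearest to Scarb1 were Scoc (r = 0.965), Ctse (r = 0.961) and Gpx3 (r = 0.956), with rho from 0.937 to 0.979, and Bco1 had the lowest top value, Dnhd1 (r = 0.925), before Tln2 (r = 0.888) and Defa24 (r = 0.885). Gsta4 and Idh1 were among the genes nearest to Rbp2 (r = 0.988 each). Dhrs1 ran most like Gsto1 (r = 0.992), Rtn4rl1 (r = 0.990) and Prxl2a (r = 0.989), and Aldh1a1 like Ces1f (r = 0.989), Aadac (r = 0.986) and Gstk1 (r = 0.985). Hsd17b6 ran most like Plpp1 (r = 0.976), Svil (r = 0.973) and Scamp5 (r = 0.968), Rdh7 like Zfp768 (r = 0.978), Dnajc19 and Prap1 (r = 0.976 each), and Lrat like Desi1 (r = 0.967), Cdc14b (r = 0.964) and Pbld1 (r = 0.962).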

How the data were processed

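RNA-seq libraries of total RNA were made after Trizol extraction with an Ovation kit, per the labels' protocols. Per the submitters' processing notes, the genome build was mm10 and the tools were STAR, for which these sources give no version, and DESeq2 1.28.1. The 12 sample columns that the authors deposited are a signal: all 206100 values were whole multiples of a step of their column within 0.001 steps, so each was taken as (reads + 1) divided by a size factor, and reads were recovered from them. The deposited log2 fold change with its standard error, the deposited score (a Wald statistic) and the deposited p-value with its adjusted p-value belong by arithmetic to cKO proximal over WT distal (median absolute difference of log2 fold changes 0.00169, against 0.395 for the next pair) and were not used.

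The main test was limma 3.58.1 (R 4.3.3; 4 group means, empirical Bayes with trend) on log2(value + 1) of all 17175 genes, with Benjamini-Hochberg adjusted p under 0.05. Log2 fold changes are on this scale, which understates changes of genes with few reads. Depth limits precision for Bco1, Lrat and Scarb1, with 17 to 98 reads per library for Bco1. Alternatives were edgeR 4.0.16 and DESeq2 1.42.0 on the recovered reads, TMM factors, a pseudocount of 5, a mean value of at least 10, a replicate block, the mitochondrial share as a covariate, leaving out libraries and, chosen after seeing the data, values relative to 8 epithelial or 7 enterocyte markers. Genomic positions and exon lengths come from GENCODE M21, and sequence identity from BLAST 2.17.0.

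Libraries numbered alike in both segments of a genotype share a sample name in the labels, and their deviations from the group means correlated at 0.246 to 0.439 over 12610 genes, with 12 of 12 libraries correlating best with their own number, so these numbers pair the segments. The main fit did not model this pairing, and the replicate block is the alternative that does. Across genotypes the correlations were -0.201 to 0.094, and the numbers do not pair.

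The members and the gene lists were chosen with earlier results of these data known. All 9 members are described. Of the wider lists, up to 5 genes with the smallest p among those passing are named in each comparison, and for each member the 3 genes with the highest r, among genes with a mean log2 value of at least 4; a gene that this rule names for Rbp2 is not reported here. Genes named outside this rule are said to be, or are markers or close copies of members.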

Additional observations from a re-analysis of the deposited data

Results flagged for a closer look

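The genotype effect on Aldh1a1 differed between segments: the log2 fold change of cKO over WT was 1.89 in the distal and 0.08 in the proximal segment, a difference of 1.81 by the interaction term of the limma fit (adjusted p = 0.0179), with all 3 cKO distal libraries above all 3 WT distal libraries.

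Hsd17b6 differed between segments in the same way, with 2.93 in the distal and 0.52 in the proximal segment, a difference of 2.41 (limma adjusted p = 0.0340). In neither case did the call hold without both cKO libraries numbered 1 or relative to the 7 enterocyte markers.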

How the results depend on the processing

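Over 45 member results, 990 alternative values were computed, of which 916 kept their direction and side of the threshold, 12 newly passed, 26 no longer passed and 36 changed sign. Of the 506 alternatives of the 23 called results, 479 stayed called, 26 did not pass and 1 changed sign (Isx, distal genotype effect, relative to enterocyte markers). The distal genotype calls of Aldh1a1 and Hsd17b6 held in 22 of 22 alternatives, and all segment calls did except Aldh1a1 in cKO and Lrat in WT, both lost relative to enterocyte markers. Of those 7 markers, 2 were themselves lower in distal libraries of each genotype. The causes of the changes below were not tested.

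For cKO over WT in the proximal segment, Lrat came to -0.46 with the mitochondrial covariate and -0.12 without both cKO libraries numbered 1. Aldh1a1 came to -0.040 with TMM, -0.030 in edgeR, -0.017 in DESeq2 and -0.10 with the covariate, and Rdh7 to -0.30 with the covariate. For distal over proximal in cKO, Isx came to -0.31 relative to epithelial markers and -0.084 without both cKO libraries numbered 1, and its interaction to -0.48, -0.12 and, with the covariate, -0.0030. The interaction of Bco1 came to -0.24 relative to epithelial markers. Relative to enterocyte markers, a scaling chosen after seeing the data, the distal genotype effect came to -0.11 for Isx and -0.011 for Rdh7, the proximal one to -0.20 for Lrat and -0.25 for Aldh1a1, and the interaction to -0.71 for Isx, -0.47 for Bco1, -0.16 for Scarb1 and -0.16 for Rdh7. Leaving out single libraries, the proximal genotype effect ranged from -0.12 to 0.34 for Lrat and -0.031 to 0.19 for Aldh1a1, the distal one from -0.51 to 0.21 for Bco1, Isx distal over proximal from -0.044 to 0.18 in cKO and -0.029 to 0.13 in WT, and the interaction from -0.084 to 0.14 for Isx and -0.10 to 0.62 for Bco1.

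Counts over all genes moved by more than 1.5 times as follows. Proximal genotype calls (1418) were 914 relative to epithelial markers, 2304 in DESeq2, 292 with the covariate and 766 without both cKO libraries numbered 1, and with the covariate 0 members were called. Distal genotype calls (4297) were 1356 with the covariate and 2160 without those libraries. Distal against proximal in cKO (1806) gave 2778 relative to epithelial markers, 2762 in DESeq2 and 862 without those libraries. The interaction (99) gave 168 with a pseudocount of 5, 169 relative to epithelial markers, 59 in edgeR, 594 in DESeq2, 460 with the replicate block and 2 without those libraries, where 0 members were called. Relative to enterocyte markers the counts were 8005 (distal genotype), 740 (proximal genotype, with 1 member), 11624 (segments in WT) and 290 (interaction, with 0 members). Leaving out single libraries, gene counts ranged from 2466 to 4954 (distal genotype), 580 to 1700 (proximal genotype), 2741 to 4441 (segments in WT), 1031 to 1938 (segments in cKO) and 7 to 266 (interaction), and member counts were 5 to 7, 2 in every case, 7 in every case, 6 to 7 and 0 to 2 in that order.

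With TMM, 557 proximal genotype calls were higher and 814 lower (40.6% higher, against 51.0%), and with DESeq2 937 and 1367. Scaling to epithelial markers moved the median of all genes to -0.40 (distal genotype), -0.37 (segments in cKO), 0.19 (segments in WT) and -0.50 (interaction), and the calls to 730 higher and 2822 lower, 368 and 2410, 1689 and 1471, and 17 and 152 in that order, with 569 and 345 for the proximal genotype. Scaling to enterocyte markers moved the median to -0.99 (distal genotype), -0.24 (proximal genotype), 0.51 (segments in cKO), 1.29 (segments in WT) and -0.73 (interaction), and the calls to 183 higher and 7822 lower, 144 and 596, 1213 and 309, 11232 and 392, and 11 and 279 in that order. The replicate block changed member calls for Bco1 and Hsd17b6 between segments of cKO alone, with 8 members called there. A block by number gave 4242 distal and 1388 proximal genotype calls, with 6 and 2 members, though numbers do not pair genotypes.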
